A study of Mus musculus with 8 samples.

Results

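Genes of cholesterol and fatty acid metabolism were followed in T cells that had entered a diseased kidney and in T cells of the spleen. A list of 36 genes was drawn up by function: 13 of cholesterol synthesis, 4 that control it through the SREBP transcription factors, 9 of fatty acid synthesis, 7 of fatty acid oxidation and 3 of lipid export and storage. Of these, 34 were among the 13341 genes of the deposited table, and Hmgcs1 and Fads2 were not analysed here. A filter on low levels left 33 members among 10845 genes tested; Scd1, a fatty acid desaturase, did not pass it.

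The cells came from 14-week-old MRL/lpr mice. This strain carries the lpr mutation of the death receptor gene Fas in every group used here and develops a lupus-like disease with inflamed kidneys. T cells with high surface CD44, a mark of cells that have met antigen, were sorted as CD4+ or CD8+ cells from kidney and from spleen, which gave 4 groups of 2 libraries, and RNA was amplified with a SMART-Seq v4 kit for very small inputs. No wild-type or unaffected animals were among the groups, so each comparison is between organs or between cell types within the diseased strain. The labels name no separate animals for the 2 libraries of a group.

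Cells build cholesterol from acetyl groups through the mevalonate pathway, whose enzymes are switched on together when sterols run low: the sensor SCAP then carries the SREBP factors out of the endoplasmic reticulum, unless INSIG proteins hold them there. Fatty acids are built by FASN and its partners, lengthened by ELOVL and desaturated by SCD and FADS enzymes, and burned in mitochondria after CPT1A and CPT2 carry them in. Dividing effector T cells are known to lean on synthesis, and memory and some tissue-resident T cells on oxidation.

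A level here means the normalised signal as the authors deposited it, and every fold change and its standard error (SE) is on the log2(level + 1) scale. A gene was called in a comparison when its adjusted p, from limma with Benjamini-Hochberg adjustment over all 10845 genes, was below 0.05. Depth was 7477544 to 11169003 reads per library, recovered from the deposited values. Cd4 was at 1365 to 2224 in the 4 CD4+ libraries and at 0 to 17.8 in the 4 CD8+ libraries. Cd8a was at 12159 to 18556 in CD8+ libraries and at 1.11 to 103 in CD4+ libraries, so the sorted markers followed the labels.

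The 2 kidney CD4+ libraries stood apart from each other before any comparison was made. The T cell receptor subunit gene Cd3e was at 637 in replicate 2 of kidney CD4+ cells, against 4225 to 6826 in the other 7 libraries, and the T cell kinase gene Lck at 2813, against 24569 in replicate 1. Other T cell genes were higher in replicate 2, such as Cd3d (26729 against 10077) and Cd3g (48406 against 24538), and the summed level of the T cell markers was 115378 in replicate 2 and 97237 in replicate 1. Of the 33 members, 15 differed more than 4-fold between these 2 libraries, and 14 of the 15 were lower in replicate 2. Among all genes tested 26.6% differed by that much there, and 17.9% of all genes did so with replicate 2 lower. In kidney CD8+ cells 2 members differed that far, and in each spleen group 0 did. Markers of some other cells also differed by organ. The summed level of 22 proximal tubule markers was 8415 to 31793 in kidney libraries and 88.2 to 551 in spleen libraries, where the tubule genes Miox and Fbp1 were at 0 in all 4. A sum over 19 macrophage markers overlapped between organs, at 3972 to 14396 in kidney and 3485 to 7061 in spleen. Single macrophage markers did differ: of 16 tested, 5 were called as higher and 2 as lower in kidney over both cell types. C1qc was at 49.3 to 206 in kidney and 7.41 to 32.1 in spleen libraries. Cd5l went the other way, at 0 to 8.32 in kidney and 10.8 to 88.7 in spleen libraries. Dendritic cell markers (8) summed to 26408 and 14879 in kidney CD4+ and 5815 and 3655 in kidney CD8+ cells. In spleen that sum was 5664 and 4633 in CD4+ and 2318 and 2852 in CD8+ cells. B cell markers (6) summed to 182 to 247 in kidney and 393 to 989 in spleen. Neutrophil markers (12) summed to 0.849 to 31.0 in kidney and 3768 to 9725 in spleen, with S100a9 at 0 in every kidney library. Erythroid markers (10) summed to 649 to 1796 in kidney and 9308 to 17158 in spleen. The part of these other cells and of the gap between the 2 kidney CD4+ libraries in the results on lipid genes was not tested, except where values without a library are given. In bulk RNA, fewer cells of a kind and less RNA per cell cannot be told apart.

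**Figure D1:**
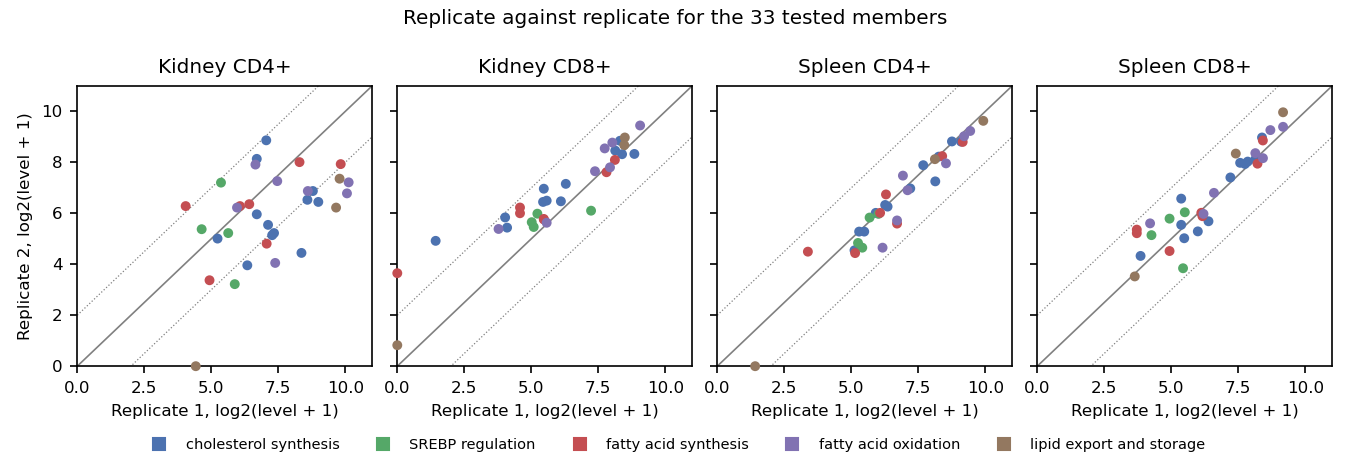
Each point is 1 of the 33 tested members, coloured by pathway, with log2(level + 1) in replicate 1 on the horizontal axis and in replicate 2 on the vertical axis, for each of the 4 groups. The solid line marks equal values and the dotted lines a difference of 2 log2 units; 15 members lie beyond the dotted lines in kidney CD4+ cells, 2 in kidney CD8+ cells and 0 in either spleen group.

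Kidney and spleen were compared first, to ask whether T cells in the diseased organ carry other lipid programmes than those in the lymphoid organ. In the comparison over both cell types 0 of 33 members were called, and 0 had a level that was higher, or lower, in all 4 kidney libraries than in all 4 spleen libraries. Of all genes tested, 3.37% were called in that comparison and 9.43% had groups that did not overlap. In CD4+ cells alone 0 of 33 members were called, against 0.959% of all genes, and in CD8+ cells 0 of 33, against 1.55%. Within CD4+ cells the 2 kidney and 2 spleen libraries did not overlap for 6 of 33 members, 3 higher in kidney (Cyp51, Lss and Fasn) and 3 lower (Mvk, Insig1 and Scd2), against 31.9% of all genes. Within CD8+ cells this held for 18 of 33, against 51.1% of all genes. The 7 higher in kidney were Mvk, Pmvk, Fdps, Scap, Scd2, Acadl and Plin2. The 11 lower were Mvd, Lss, Dhcr7, Acaca, Fasn, Elovl5, Cpt1a, Acadvl, Hadha, Abca1 and Abcg1. At an unadjusted p below 0.05, limma gave 0 members in CD4+ cells (9.11% of all genes), 1 in CD8+ cells (10.6%) and 0 over both (14.2%). edgeR and DESeq2 on the recovered reads also called 0 members in each of these comparisons. Of all genes, edgeR called 0.609% in CD4+ cells, 0.913% in CD8+ cells and 3.1% over both. For DESeq2 the shares were 3.25%, 4.48% and 7.28%. The test of the difference between the organ effects in the 2 cell types called 0 members and 0% of all genes. At an unadjusted p below 0.05, limma gave 0 members there, against 3.34% of all genes.

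The intervals show how much could have been missed. Each rests on 1 spread per gene that all 4 groups share. The standard deviation of the log2 difference between replicates over members was 1.79 in kidney CD4+ and 0.97 in kidney CD8+ cells. In spleen it was 0.54 in CD4+ and 0.69 in CD8+ cells. Intervals that involve kidney CD4+ cells may thus be too narrow and others too wide. The median of the half-widths of the 95% intervals of the members was 1.15 log2 units over both cell types and 1.62 within one cell type, where a 2-fold difference is 1 log2 unit. Over both cell types the interval lay within a 2-fold difference in either direction for 4 members: Acly, Fasn, Fdps and Acadm. For the other 29 a difference of 2-fold or more lay inside the interval.

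**Figure D2:**
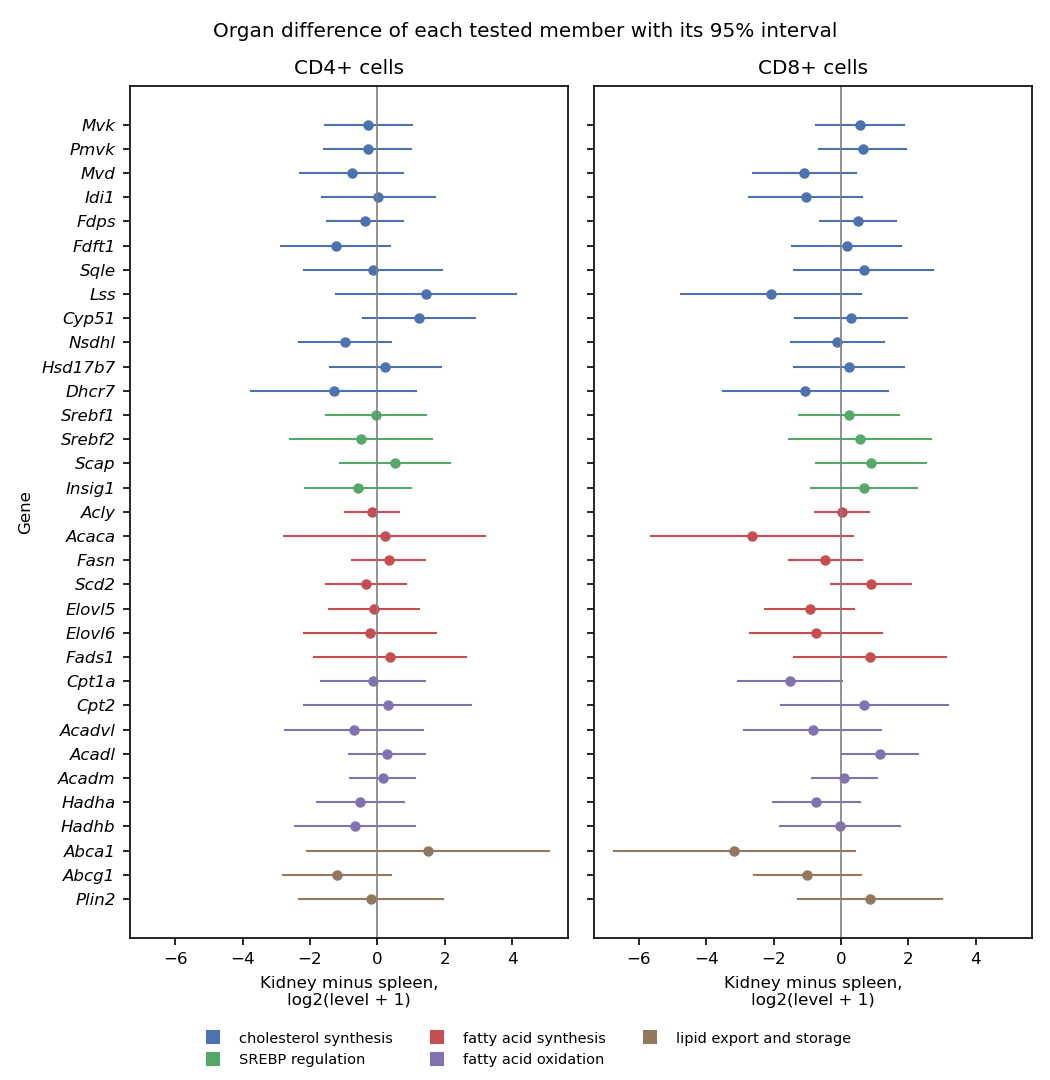
Points give the kidney minus spleen difference in log2(level + 1) of each tested member in CD4+ cells (left) and CD8+ cells (right), with lines for the 95% interval and colours for the pathway. All intervals but that of Acadl in CD8+ cells include 0.

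The enzymes of cholesterol synthesis were detected from mevalonate to the last step in every group. Taken per kilobase of the longest annotated transcript, the mean level over all libraries was highest for Pmvk, the phosphomevalonate kinase (259), Fdps, which makes farnesyl diphosphate (196), and Nsdhl, a dehydrogenase of the late steps (176). It was lowest for Lss, the lanosterol synthase (6.44), and Sqle, the squalene epoxidase (7.34). The promoters of these genes were read because the enzymes are known to be controlled together through SREBP and the factor NF-Y that binds beside it. Windows of 300 bases around the annotated start, from RefSeq on GRCm38.p6, were at hand for 27 of the 34 members. The letters CCAAT, the box that NF-Y binds, were present on either strand in the most upstream window of 8 of the 9 cholesterol synthesis members with a window (Cyp51, Hsd17b7, Idi1, Lss, Mvd, Mvk, Nsdhl and Pmvk). They were present in 3 of 4 SREBP regulators, 3 of 5 fatty acid synthesis members, 1 of 7 fatty acid oxidation members and 38.0% of all 27025 promoters. CACCCNAC, the core of an SREBP element, was found in 1 of the 27 members, Nsdhl, and in 5.01% of all promoters. Such a match describes the letters and is not a bound site. The windows of Nsdhl, Idi1 and Lss show the pattern, the first with both motifs, with capitals on CCAAT or its complement ATTGG and on the SREBP core:
Nsdhl, chrX:72918271-72918570, + strand: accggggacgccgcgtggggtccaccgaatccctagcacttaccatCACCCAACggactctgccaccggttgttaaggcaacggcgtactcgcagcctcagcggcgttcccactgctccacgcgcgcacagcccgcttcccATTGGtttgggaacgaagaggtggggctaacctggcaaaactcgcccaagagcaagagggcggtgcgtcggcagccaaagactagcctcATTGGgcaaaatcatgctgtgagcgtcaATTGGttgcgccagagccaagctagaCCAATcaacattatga
Idi1, chr13:8885356-8885655, + strand: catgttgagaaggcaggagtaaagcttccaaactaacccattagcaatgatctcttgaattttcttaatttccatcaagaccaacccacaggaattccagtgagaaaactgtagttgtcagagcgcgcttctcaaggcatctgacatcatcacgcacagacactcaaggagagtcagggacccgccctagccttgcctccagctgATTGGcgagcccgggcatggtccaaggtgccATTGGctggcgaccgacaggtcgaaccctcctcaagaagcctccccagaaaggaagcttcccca
Lss, chr10:76531355-76531654, + strand: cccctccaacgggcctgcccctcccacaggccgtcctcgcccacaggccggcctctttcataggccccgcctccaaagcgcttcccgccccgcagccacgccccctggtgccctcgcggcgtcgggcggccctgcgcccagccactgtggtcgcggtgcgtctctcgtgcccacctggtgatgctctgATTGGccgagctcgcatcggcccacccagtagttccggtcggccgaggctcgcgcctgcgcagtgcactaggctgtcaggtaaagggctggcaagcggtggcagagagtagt
The Nsdhl window held 4 CCAAT boxes and 1 SREBP core, that of Idi1 2 boxes and that of Lss 1. No capital stretch in these windows overlaps another.

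The 3 cholesterol synthesis members with the highest level not corrected for length did not separate by organ. Nsdhl (mm9 chrX:70163896-70203853) was at 443 and 117 in kidney CD4+ cells, 317 and 460.2 in kidney CD8+ cells, 432 and 452 in spleen CD4+ cells and 334 and 503 in spleen CD8+ cells. Its lowest value was kidney CD4+ replicate 2, and the other 7 libraries overlapped between organs. Fdft1 (mm9 chr14:63763990-63796630), the squalene synthase, was at 509.6 and 86.4 in kidney CD4+, 280.1 and 352 in kidney CD8+, 546 and 450.3 in spleen CD4+ and 280.1 and 276 in spleen CD8+ cells. Here too kidney CD4+ replicate 2 was lowest, and the other kidney CD4+ library lay within the range of spleen CD4+ cells. Pmvk (mm9 chr3:89263040-89272935) went the other way, with 132 and 466 in kidney CD4+, 460.1 and 321 in kidney CD8+, 306 and 298 in spleen CD4+ and 230.3 and 261 in spleen CD8+ cells. Both kidney CD8+ libraries were above both spleen CD8+ libraries for Pmvk, while kidney CD4+ cells held its lowest and its highest value. Organ differences over both cell types were -0.53 for Nsdhl, -0.53 for Fdft1 and 0.18 for Pmvk, with adjusted p of 0.62, 0.67 and 0.87.

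The other 9 members of the pathway had organ differences over both cell types from -1.17 (Dhcr7, the last reductase of the pathway) to 0.78 (Cyp51, the lanosterol demethylase). Over the 12 members the median was -0.12, against -0.06 for all genes tested, and 6 of 12 lay above 0. Cyp51 was at 384 and 91.6 in kidney CD4+ cells and at 38.2 to 86.3 in the other 6 libraries, so that both kidney CD4+ libraries were above all others. Its difference in CD4+ cells was 1.25 with an adjusted p of 0.70. Lss was at 161 and 36.4 in kidney CD4+, 1.70 and 29.3 in kidney CD8+ and 22.4 to 43.8 in spleen libraries. Between cell types in kidney it differed by -3.11 (SE 1.17, CD8+ minus CD4+), at an unadjusted p of 0.027 and an adjusted p of 0.50. Of the remaining steps, Mvk (mevalonate kinase) ranged over all libraries from 31.2 to 89.4, Mvd (mevalonate decarboxylase) from 43.3 to 169, Idi1 (isopentenyl isomerase) from 15.3 to 103, Fdps from 103 to 334, Sqle from 13.5 to 80.3, Hsd17b7 (a late ketoreductase) from 34.3 to 154 and Dhcr7 from 20.8 to 329. None was called. None of the 9 other tested genes of the pathway was called in an organ comparison either.

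**Figure D3:**
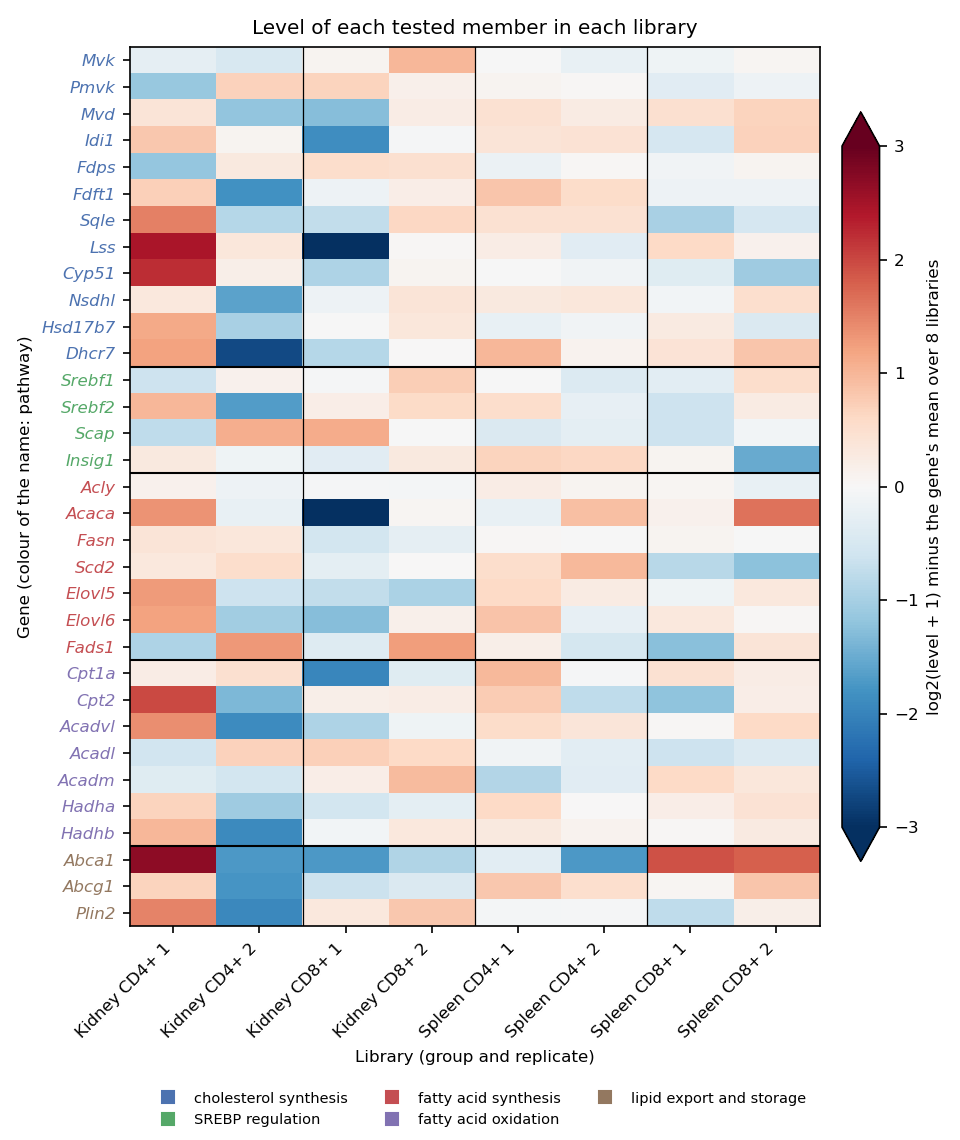
Each row is a tested member, with its name coloured by pathway, and each column a library. Colour gives log2(level + 1) minus the mean of that gene over the 8 libraries, from blue (lower) to red (higher); of the 2 kidney CD4+ columns, replicate 2 was the lower for 25 of 33 members.

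None of the 4 regulators of the pathway was called between organs, and their mean levels per kilobase were 6.53 to 18.4. Srebf2, the factor that drives cholesterol genes, was at 57.8 and 8.32 in kidney CD4+, 33.1 and 43.2 in kidney CD8+, 41.6 and 24.2 in spleen CD4+ and 18.2 and 34.4 in spleen CD8+ cells. Srebf1, which drives fatty acid genes, was at 24.0 and 40.6, 36.5 and 62.4, 37.1 and 27.6, and 29.6 and 54.4 in the same order. Their organ differences over both cell types were 0.05 and 0.10, with intervals that ran past 1 log2 unit on at least one side. Scap was at 40.2 and 147 in kidney CD4+, 149 and 67.8 in kidney CD8+, 50.4 and 56.1 in spleen CD4+ and 44.4 and 64.9 in spleen CD8+ cells. Its 3 highest values were kidney libraries and its lowest value was one as well, and the difference of 0.71 had an adjusted p of 0.57. Insig1, itself a target of SREBP, was at 48.6 and 36.4, 31.4 and 49.3, 63.7 and 62.1, and 42.4 and 13.4 in that order, with a difference of 0.06. None of the 11 other tested genes of sterol control was called in an organ comparison.

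In fatty acid synthesis, Acly was the steadiest member. This enzyme, ATP citrate lyase, makes the acetyl-CoA that both synthesis routes use. It was at 313 and 257 in kidney CD4+, 278 and 273 in kidney CD8+, 335 and 303 in spleen CD4+ and 297 and 246 in spleen CD8+ cells (mm9 chr11:100337667-100389314). The organ difference was -0.07, with a 95% interval from -0.64 to 0.49, and the intervals within CD4+ and within CD8+ cells also lay inside a 2-fold difference. Elovl5, which lengthens polyunsaturated fatty acids, was at 911 and 243 in kidney CD4+, 223 and 195 in kidney CD8+, 571 and 446 in spleen CD4+ and 341 and 464 in spleen CD8+ cells. Apart from kidney CD4+ replicate 1, every kidney library was below every spleen library. Its difference over both cell types was -0.51 (adjusted p 0.62). Elovl6, which lengthens saturated fatty acids, was at 133 and 27.1, 22.9 and 63.2, 104 and 47.4, and 70.7 and 58.2 in the same order, with overlap between all groups. Fasn, the fatty acid synthase itself, was at 84.6 and 81.2 in kidney CD4+, 43.3 and 53.2 in kidney CD8+ and 63.8 to 68.7 in the 4 spleen libraries. Its organ difference over both cell types was -0.06, with an interval from -0.82 to 0.71. Acaca, the acetyl-CoA carboxylase, was low, from 0 to 36.3. Its organ difference over both cell types, -1.21 (adjusted p 0.60), was the largest of the 33 members in size. Both kidney CD8+ libraries were below both spleen CD8+ libraries for Acaca, with a difference of -2.64 in CD8+ cells (adjusted p 0.54). Fads1, a desaturase, ranged from 12.1 to 77.0. Scd1 was at 0 to 20.0 in kidney and 0 to 1.73 in spleen libraries. Over the 7 members tested the median organ difference was -0.07.

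Among the 7 oxidation members, the mean level per kilobase was highest for Acadvl (225) and Hadhb (144). The very-long-chain dehydrogenase gene Acadvl (mm9 chr11:69823685-69828913) was at 1071 and 109 in kidney CD4+, 213 and 374 in kidney CD8+, 592 and 521 in spleen CD4+ and 415 and 616 in spleen CD8+ cells. Hadha and Hadhb, the 2 subunits of the mitochondrial trifunctional protein, lie side by side on chromosome 5 (mm9 chr5:30444841-30481702 and chr5:30481788-30511133) on opposite strands. Hadhb was at 1119 and 148 in kidney CD4+, 534 and 698 in kidney CD8+, 693 and 601 in spleen CD4+ and 576 and 673 in spleen CD8+ cells, and Hadha at 388 and 117, 166 and 200.4, 370.2 and 248, and 281 and 328. For Hadhb and Acadvl the highest and the lowest of the 8 libraries were the 2 kidney CD4+ libraries. Organ differences over both cell types were -0.77 for Acadvl, -0.62 for Hadha and -0.35 for Hadhb, with adjusted p of 0.63, 0.53 and 0.81.

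Acadl, the long-chain dehydrogenase (mm9 chr1:66877413-66909851), was at 99.4 and 240.4 in kidney CD4+, 244 and 223 in kidney CD8+, 136 and 119 in spleen CD4+ and 95.6 and 111 in spleen CD8+ cells. Apart from kidney CD4+ replicate 1, each kidney library was above every spleen library. In CD8+ cells the organ difference was 1.17 (SE 0.49), with an unadjusted p of 0.043 and an adjusted p of 0.45. Of the carnitine transferases that admit fatty acids to mitochondria, Cpt1a was at 61.3 and 73.9 in kidney CD4+, 12.7 and 40.9 in kidney CD8+ and 51.8 to 104 in spleen libraries, and Cpt2 ranged from 15.6 to 166, both ends in kidney CD4+ cells. For Cpt1a both kidney CD8+ libraries were below the other 6, and the difference in CD8+ cells was -1.51 (unadjusted p 0.055, adjusted p 0.49). The median organ difference over the 7 oxidation members was -0.35.

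Of the export and storage genes, Abcg1, a cholesterol exporter, was at 885 and 163 in kidney CD4+, 354 and 409 in kidney CD8+, 973 and 793 in spleen CD4+ and 576 and 1001 in spleen CD8+ cells (mm9 chr17:31194643-31252722). Apart from kidney CD4+ replicate 1, all kidney libraries were below all spleen libraries. The difference of -1.10 over both cell types had an adjusted p of 0.37, the smallest of any member in that comparison. Abca1, the other exporter, was at 20.4 and 0 in kidney CD4+, 0 and 0.771 in kidney CD8+, 1.66 and 0 in spleen CD4+ and 11.4 and 10.5 in spleen CD8+ cells, too few reads for a difference to be read. Plin2, a coat protein of lipid droplets (mm9 chr4:86294290-86315964), was at 808 and 73.9 in kidney CD4+, 359 and 503 in kidney CD8+, 278 and 279 in spleen CD4+ and 169 and 325 in spleen CD8+ cells. Both kidney CD8+ libraries were above all spleen libraries, and the kidney CD4+ libraries were the highest and the lowest of all.

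What could be said of kidney CD4+ cells depended on which of their 2 libraries was kept, and the values do not settle which is the unusual one. Without kidney CD4+ replicate 1, which leaves replicate 2 alone with its spread taken from the other groups, 9 members were lower in kidney than in spleen CD4+ cells: Fdft1, Nsdhl, Dhcr7, Elovl5, Acadvl, Hadha, Hadhb, Abcg1 and Plin2. Of all genes tested in that fit 22.2% were called, 14.6% as lower in kidney. Without replicate 2 the number of members was 0, against 3.12% of all genes. Plin2 differed by -1.90 (adjusted p 0.011) in the first case and by 1.53 (adjusted p 0.076) in the second, and Hadhb by -2.12 (adjusted p 0.00068) and 0.79 (adjusted p 0.12). Over both cell types the members called were 11 without replicate 1, of which 9 were lower in kidney and Pmvk and Acadl higher, and 1 without replicate 2, Plin2 (1.20 higher, adjusted p 0.025). The shares of all genes called were 26.1% and 8.22%. Without replicate 1, Acadl was also called as higher in kidney CD8+ cells (1.17, adjusted p 0.041), the only member called there, against 7.11% of all genes. Leaving out any of the other 6 libraries gave 0 members in each organ comparison.

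Of 66 other tested genes of the same pathways, 2 were called as higher in kidney than in spleen CD4+ cells, against 0.959% of all genes called there, and 2 in CD8+ cells, against 1.55%. None was called as lower. In both cell types these were Me1 and Hilpda, which were also called over both. By pathway and within each cell type that was 0 of 9 in cholesterol synthesis, 0 of 11 in SREBP regulation, 1 of 12 in fatty acid synthesis, 0 of 16 in oxidation and 1 of 18 in export and storage. The 1 in fatty acid synthesis was Me1, which passed the filter on low levels only through kidney libraries. Its calls therefore add nothing to these counts beyond its levels, and without it Hilpda is the only gene in each.

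Hilpda makes a small protein of lipid droplets that blocks the breakdown of stored triglyceride and is known to be induced by low oxygen through HIF factors. Its level was 1627 and 2975 in kidney CD4+, 2660.2 and 2066 in kidney CD8+, 531 and 481 in spleen CD4+ and 550.1 and 482 in spleen CD8+ cells. Every kidney library was above every spleen library. The difference was 2.12 in CD4+ cells (adjusted p 0.047), 2.18 in CD8+ cells (adjusted p 0.032) and 2.15 (SE 0.27, adjusted p 0.0036) over both.

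Me1 makes cytosolic malic enzyme, a source of the NADPH that fatty acid synthesis uses, and is a known target of the antioxidant factor NRF2. It was at 39.5 and 85.3 in kidney CD4+ and 42.4 and 61.7 in kidney CD8+ cells and had 0 reads in all 4 spleen libraries. Against a limit of 3 reads over both spleen libraries of a cell type, it was at least 58.7-fold higher in kidney CD4+ cells and at least 42.6-fold higher in kidney CD8+ cells. It passed the filter on low levels only through the kidney libraries, so it could be tested only as a gene that differed, and its calls say no more than its levels. Beside both genes stand the proximal tubule markers, whose sum was 12492 and 24698 in kidney CD4+, 8415 and 31793 in kidney CD8+, 551 and 421 in spleen CD4+ and 88.2 and 142 in spleen CD8+ cells; their part in the rise of both genes was not tested. In the comparison over both cell types Hilpda was called in 17 of 17 alternative analyses, within CD4+ cells in 6 of 18 and within CD8+ cells in 9 of 18.

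Promoter windows of Hilpda and Me1 are shown because both genes were called between organs. RefSeq lists 2 windows for each. The upstream window of Hilpda held none of the motifs searched and the next held ACGTG, the core that HIF factors bind, and the upstream window of Me1 held TGACNNNGC, the core of an antioxidant element. Capitals mark these matches:
Hilpda, chr6:29272376-29272675, + strand: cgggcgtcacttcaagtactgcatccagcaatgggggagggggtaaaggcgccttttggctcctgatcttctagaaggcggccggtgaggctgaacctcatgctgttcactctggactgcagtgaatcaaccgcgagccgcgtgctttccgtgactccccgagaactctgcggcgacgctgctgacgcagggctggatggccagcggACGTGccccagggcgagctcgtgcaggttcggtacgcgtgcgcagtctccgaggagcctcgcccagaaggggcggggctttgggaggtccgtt
Me1, chr9:86695865-86696164, - strand: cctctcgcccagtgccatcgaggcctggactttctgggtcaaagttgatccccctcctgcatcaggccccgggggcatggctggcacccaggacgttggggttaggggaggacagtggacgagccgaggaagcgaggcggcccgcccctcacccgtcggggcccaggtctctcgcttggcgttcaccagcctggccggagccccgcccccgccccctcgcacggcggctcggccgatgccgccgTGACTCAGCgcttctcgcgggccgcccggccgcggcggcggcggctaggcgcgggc
Both sequences are on GRCm38.p6 and 300 bases long. In most upstream windows ACGTG was found on either strand in 19.6% of all promoters and in 9 of 27 members, and TGACNNNGC in 12.4% of promoters and 2 of 27 members (Hsd17b7 and Mvk). The direct repeat with 1 spacer that PPAR factors bind, searched in its consensus form on both strands, was found in 0 of 27 members and 0.0444% of promoters.

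**Figure D4:**
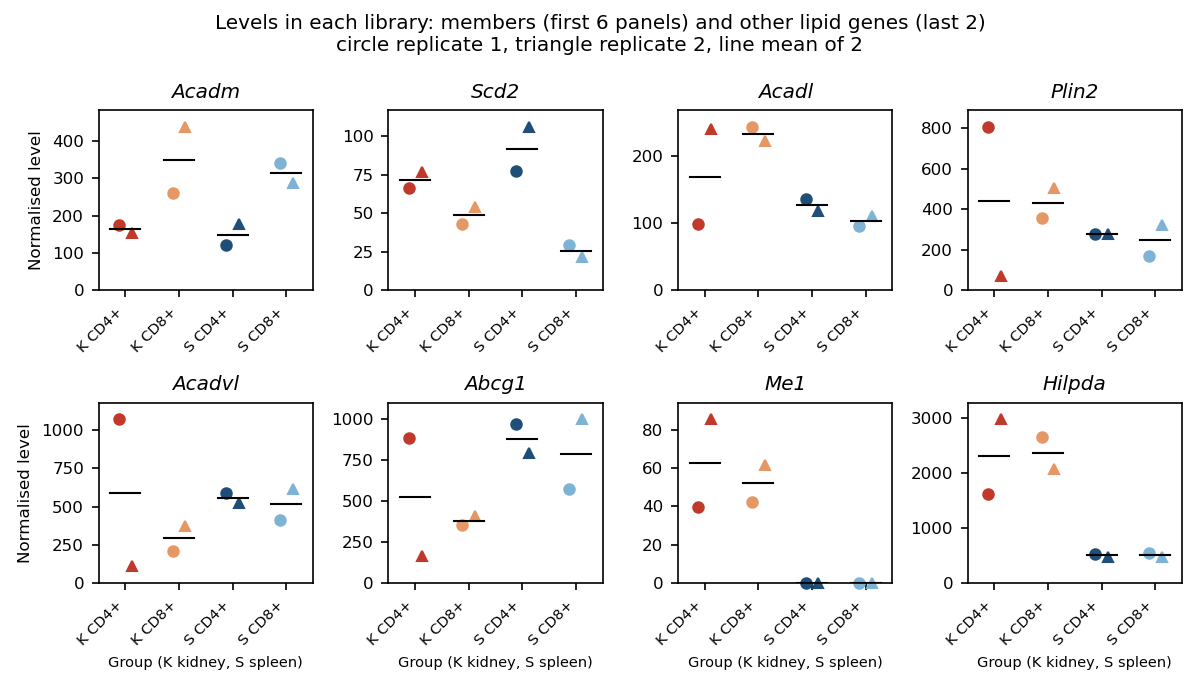
Normalised level (vertical axis, linear, from 0) in each library of the 4 groups, for 6 members and for Me1 and Hilpda; circles are replicate 1, triangles replicate 2 and lines the mean of the 2. Hilpda and Me1 were higher in all 4 kidney libraries than in all 4 spleen libraries, while Plin2 and Acadvl had their highest and lowest values in kidney CD4+ cells.

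CD8+ and CD4+ cells were compared within each organ. In kidney 0 of 33 members were called, against 0.203% of all genes, and in spleen 0 of 33, against 0.36%. edgeR and DESeq2 also called 0 in each. Of all genes, edgeR called 0.221% in kidney and 0.415% in spleen, and DESeq2 1.98% and 2.16%. At an unadjusted p below 0.05, limma gave 2 members in kidney (Acadm and Lss) and 2 in spleen (Acadm and Scd2). That was 6.06% of the members in each organ, against 8.51% of all genes in kidney and 6.43% in spleen. The 2 groups did not overlap for 10 of 33 members in kidney, 3 of them higher and 7 lower in CD8+ cells, against 27.9% of all genes. In spleen this held for 11 of 33, 3 higher and 8 lower, against 45.7% of all genes.

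Acadm, which makes the medium-chain dehydrogenase of fatty acid oxidation (mm9 chr3:153585321-153607596), had higher levels in CD8+ cells of both organs. It was at 176 and 153 in kidney CD4+, 121 and 178 in spleen CD4+, 259.7 and 438 in kidney CD8+ and 342 and 286 in spleen CD8+ cells. All 4 CD8+ libraries were above all 4 CD4+ libraries. The CD8+ minus CD4+ difference was 1.04 in kidney (adjusted p 0.55) and 1.09 in spleen (adjusted p 0.65). The summed macrophage markers were likewise apart by cell type, at 7059 to 14396 in the 4 CD4+ libraries and 3485 to 4725 in the 4 CD8+ libraries. Their part in the levels of Acadm and Scd2 was not tested.

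Scd2, which desaturates stearic acid (mm9 chr19:44368166-44381354), had the opposite order. It was at 66.3 and 77.0 in kidney CD4+, 77.6 and 106 in spleen CD4+, 43.3 and 54.0 in kidney CD8+ and 29.6 and 22.0 in spleen CD8+ cells. All 4 CD8+ libraries were below all 4 CD4+ libraries, with a difference of -0.55 in kidney (adjusted p 0.81) and -1.79 in spleen (SE 0.52, adjusted p 0.33). Both genes were called in spleen when libraries were weighted by their scatter (adjusted p 0.019 for Scd2 and 0.039 for Acadm) and when spleen libraries were fitted alone (0.031 for each); the latter fit also called Fdft1 as lower in spleen CD8+ cells (-0.83, adjusted p 0.041). The weighted fit called 6.14% of all genes in that comparison and the fit of spleen libraries alone 7.28%.

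Because of this pattern, the mean of the CD8+ minus CD4+ difference over both organs was added as a comparison after the values were seen. It called 0 of 33 members, against 1.3% of all genes, and Acadm and Scd2 were the only members of the 33 whose 4 CD8+ and 4 CD4+ libraries did not overlap, against 5.82% of all genes. Acadm differed by 1.06 (SE 0.30, unadjusted p 0.0068, adjusted p 0.20) and Scd2 by -1.17 (SE 0.37, unadjusted p 0.012, adjusted p 0.27). DESeq2 called Acadm (1.11, adjusted p 0.034), and edgeR did not (adjusted p 0.20); DESeq2 called 4.11% of all genes there. Without kidney CD4+ replicate 1, 3 members were called as higher in CD8+ cells (Acadm, Hadhb and Plin2), and without replicate 2, 6 were called, Fdps and Acadm as higher and Fdft1, Cyp51, Elovl5 and Acadvl as lower. Of all genes 10.8% and 12.9% were called in these fits. In kidney alone 5 were called without replicate 1 (Fdft1, Nsdhl, Dhcr7, Hadhb and Plin2, all higher in CD8+ cells), and 6 without replicate 2 (Pmvk and Fdps higher, Cyp51, Elovl5, Acadvl and Abcg1 lower), against 11.3% and 13.2% of all genes. All 7 tested members of fatty acid synthesis had differences below 0 over both organs, from -1.17 to -0.01, with a median of -0.39 against -0.02 for all genes. Within one organ 1 of the 7 lay above 0 in kidney and 2 in spleen, and of the 12 other tested genes of that pathway 5 lay above 0 over both organs (median -0.06).

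The scatter between replicates differed by pathway in the mean of log2(level + 1) over members. For the 12 cholesterol synthesis members it was 7.38 and 6.01 in kidney CD4+, 6.01 and 6.98 in kidney CD8+, 6.97 and 6.81 in spleen CD4+ and 6.61 and 6.74 in spleen CD8+ cells. For the 7 oxidation members it was 8.04 and 6.62, 7.07 and 7.61, 7.73 and 7.28, and 7.35 and 7.66 in the same order. The 7 fatty acid synthesis members gave 6.67 and 6.15, 5.15 and 6.16, 6.45 and 6.34, and 5.90 and 6.26, and the 4 regulators 5.38 and 5.26, 5.64 and 5.80, 5.59 and 5.33, and 5.04 and 5.21. The 3 export and storage members, among them Abca1 with few reads, gave 7.96 and 4.53, 5.65 and 6.16, 6.49 and 5.92, and 6.74 and 7.28. In cholesterol synthesis, oxidation, and export and storage the 2 kidney CD4+ libraries lay farthest apart and spanned all of the spleen values. The widest of these gaps was that of export and storage. For fatty acid synthesis the 2 kidney CD8+ libraries lay farthest apart, and for the regulators the 2 kidney CD4+ libraries were the closest of the 4 pairs. For the regulators both kidney CD8+ libraries were above the other 6. The same mean over all genes tested was 5.98 to 6.37 in the 8 libraries.

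Values of 8 members are uncertain because their exons share bases with another annotated gene and the library kit keeps no strand. These are Fdft1 (with Ctsb), Srebf1 (with Rai1), Acadvl (with Dvl2), Hadha (with Fam59b), Acaca (with Gm17722), and Lss, Scap and Scd2 (each with a gene model known by a clone name).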

How the data were processed

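The samples were CD44hi T cells in 4 groups of 2 libraries. The authors deposited 1 table of normalised signal for 13341 genes, aligned to mm9 per the labels. The submitters' processing notes name STAR 2.5.3 and TopHat2 2.1.0, and no source used here gives the counting tool or annotation. Every deposited value was a whole multiple of 1 step per library (100% of values, tolerance 1e-06), which gave back 7477544 to 11169003 reads per library. A level is the deposited normalised signal.

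Log2(level + 1) was fitted with limma 3.58.1 in R 4.3.3 (4 group means over 8 libraries, variance trend, 2-sided), for the 10845 genes that reached a level of 10 in 2 or more libraries. Benjamini-Hochberg adjustment ran over all of them within a comparison, with the threshold for a call at 0.05. Fold changes on this scale understate those of low genes. The procedure was tested on simulated data. Alternatives were recomputed size factors, other pseudocounts and filters, library weights, edgeR 4.0.16 and DESeq2 1.42.0 on the recovered reads, a fit of the compared libraries alone, a block on the replicate number and each library left out. The comparison of CD8+ with CD4+ cells over both organs was added after seeing the data.

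The members and lists were chosen with earlier results of these data known. Every listed gene is accounted for, and the rule for naming took the 3 members with the highest mean level per pathway, the SREBP regulators, other pathway genes called between organs and cell markers. Some genes that this rule takes are left out of the text. Other members named singly were chosen after their values were seen. Positions are from the GENCODE annotation of mm9, and promoter sequences from RefSeq on GRCm38.p6. The labels do not say that the 2 libraries of a group came from separate animals, so p-values measure the spread between these libraries, which may be technical. Counting bounds cover counting error only, since reads were not marked by molecular identifiers.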

Additional observations from a re-analysis of the deposited data

Results flagged for a closer look

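For 4 members, both kidney libraries lay on one side of both spleen libraries in CD4+ cells and on the opposite side in CD8+ cells, 4 of 33 against 3.37% of all genes tested. The difference between the organ effects (CD8+ minus CD4+, log2 scale) was 0.84 for Mvk, -3.53 for Lss, -0.80 for Fasn and 1.24 for Scd2. In the test of that difference with limma none was called (adjusted p 0.999 for each). For Mvk the CD4+ libraries lay close, at 36.7 and 31.2 in kidney and 43.8 and 38.0 in spleen. No other gene of the pathways was flagged for opposite organ differences. Between cell types, no member lay on opposite sides in the 2 organs, against 3.96% of all genes tested. Among other genes of the pathways, 2 had CD8+ cells on one side of CD4+ cells in spleen and on the opposite side in kidney, 2 of 66 against 3.96% of all genes tested. For Tm7sf2, a sterol reductase gene at 1.04 to 25.4, the difference was 2.58, and for Elovl1, a fatty acid elongase gene at 396 to 1207, it was 0.98 (adjusted p 0.999 for each). The values of Lss, Elovl1 and Tm7sf2 include those of kidney CD4+ libraries that differed more than 2-fold from each other.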

How the results depend on the processing

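With 2 libraries per group the number of members called depended on the kidney CD4+ libraries. Leaving out 1 library at a time gave 0 to 9 members for organ in CD4+ cells, 0 to 1 in CD8+ cells, 0 to 11 over both, 0 to 4 for the difference between organ effects, 0 to 6 for cell type in kidney and 0 to 6 for cell type over both organs; all counts above 0 came from leaving out a kidney CD4+ library. For cell type in spleen each gave 0. The share of all genes called over the same fits was 0.196% to 22.2%, 0.205% to 7.12%, 1.44% to 26.1%, 0% to 7.3%, 0.0281% to 13.2% and 0.252% to 12.9% in that order, and 0.0187% to 3.28% for cell type in spleen. Library weights gave 2 members for cell type in spleen (6.14% of all genes), the fit of the spleen libraries alone 3 (7.28%), and DESeq2 1 for cell type over both organs (4.11%). The cause was not tested. In kidney the cell type difference of Abcg1, 0.00044 with all libraries, ranged from -1.21 without kidney CD4+ replicate 2 to 1.22 without replicate 1. A replicate block gave 0 members in every comparison, where 0% to 2.66% of all genes were called. Same-numbered libraries did not deviate together (correlations -0.155 to 0.056 over 6 pairs of groups). With 2 libraries per group this cannot decide whether same-numbered libraries share animals, and the labels do not say. Under at least one alternative the sign changed for 26 of 33 members in the CD4+ organ comparison and 9 of 33 in the CD8+ one.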

Other observations

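Among the tested pathway genes outside the list, some had levels in all 4 kidney libraries above those in all 4 spleen libraries, against 9.43% of all genes whose groups did not overlap in either direction. Besides Me1 and Hilpda, 6 of them are given here, which were not called and were chosen after their values were seen. Dgat2, an enzyme of triglyceride synthesis, was at 22.6 and 41.6 in kidney CD4+, 5.94 and 7.71 in kidney CD8+ and 0 to 3.88 in spleen libraries (limma adjusted p 0.059). Acaa1a, a peroxisomal thiolase with a near-identical copy that could share its reads, was at 75.5 to 101 in kidney and 29.9 to 34.5 in spleen libraries (adjusted p 0.072). Erlin1, a membrane protein of the endoplasmic reticulum, was at 13.9 to 33.8 and 0 to 8.31 (adjusted p 0.11). Dgat2 and Erlin1 passed the filter on low levels only through kidney libraries. Their adjusted p values therefore say no more than their levels. Etfb, which passes electrons from the acyl-CoA dehydrogenases, was at 2327 to 4984 and 1486 to 1667 (adjusted p 0.17). Acsl1, an acyl-CoA synthetase, was at 20.4 to 62.0 and 7.64 to 20.0 (adjusted p 0.20), and Tecr, a reductase of fatty acid elongation, at 2417 to 3939 and 2017 to 2336 (adjusted p 0.34). Proximal tubule markers, higher in all 4 kidney libraries as well, were not tested for their part in these levels.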
